A study of Mus musculus with 15 samples.

Results

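Sarcolipin (*Sln*), phospholamban (*Pln*), myoregulin (*Mrln*) and the 3 SERCA pump genes *Atp2a1*, *Atp2a2* and *Atp2a3* were followed across all 15 libraries. These 6 genes were taken by matching each Ensembl identifier to its symbol in GRCm38, out of 30672 genes in the table, and all 6 passed the filter on low counts together with the rest of the 15533 genes tested. The RNA came from the tibialis anterior, a fast muscle of the lower leg, of 7-week-old male 129Pas mice. *Mtm1* encodes myotubularin, a phosphatase of the lipid PI3P, and its loss in the *Mtm1*-/y mouse models X-linked myotubular myopathy. The untreated groups were WT and *Mtm1*-/y, with 4 libraries each, and the groups given tamoxifen were WT + TAM, with 4 libraries, and *Mtm1*-/y + TAM, with 3. Tamoxifen is a modulator of oestrogen receptors. Its dose, start and vehicle were among the details not given in the sources used here, and nothing in the labels says that each library is a separate animal, so p-values measure the spread between these libraries.

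SERCA pumps use ATP to return calcium from the cytosol to the sarcoplasmic reticulum, which ends a contraction. *Atp2a1* encodes SERCA1, the pump of fast fibres, *Atp2a2* encodes SERCA2, the pump of slow fibres and heart, and *Atp2a3* encodes SERCA3, best known from non-muscle cells. Sarcolipin, phospholamban and myoregulin are micropeptides of the sarcoplasmic reticulum membrane that bind the pumps and lower their apparent affinity for calcium. Sarcolipin also uncouples ATP use from calcium transport, which releases heat. In adult mice sarcolipin is best known from atrium and slow muscle, phospholamban from ventricle and slow muscle, and myoregulin from skeletal muscle of all fibre types.

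The coding sequences of the 3 regulators are shown because the whole inhibitor is written in a single exon in each case, and because their similarity bears on whether counts could be exchanged between them. They were read from GENCODE M21 on GRCm38, all on the plus strand, and run 5′ to 3′ from the start codon through the stop codon. Capitals mark the codons of the 4 residues that all 3 peptides share in an alignment of their translations.
*Sln* (chr9:53853473-53853568, exon 2 of 2): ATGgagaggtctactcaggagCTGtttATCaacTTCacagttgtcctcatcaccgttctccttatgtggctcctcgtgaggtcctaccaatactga
*Pln* (chr10:53343864-53344022, exon 2 of 2): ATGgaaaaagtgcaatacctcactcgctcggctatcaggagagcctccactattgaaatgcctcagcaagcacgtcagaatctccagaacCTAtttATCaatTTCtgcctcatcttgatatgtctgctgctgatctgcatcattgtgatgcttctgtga
*Mrln* (chr10:70219496-70219636, exon 3 of 3): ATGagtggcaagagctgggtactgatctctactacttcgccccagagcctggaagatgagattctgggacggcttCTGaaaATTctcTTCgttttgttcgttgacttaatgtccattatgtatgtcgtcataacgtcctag
The peptides have 31, 52 and 46 residues in that order. *Sln* and *Pln* translations were identical at 11 of 29 aligned positions, and their transcripts shared no stretch longer than 13 bases. *Mrln* shared no stretch longer than 10 bases with either of them. The pumps are far more alike, with 84.5% identity between the translations of *Atp2a1* and *Atp2a2*, 75.8% between *Atp2a1* and *Atp2a3* and 77.7% between *Atp2a2* and *Atp2a3*. The longest identical stretch between transcripts was 44 bases for *Atp2a1* and *Atp2a2*, 53 bases for *Atp2a1* and *Atp2a3* and 44 bases for *Atp2a2* and *Atp2a3*. The treatment of reads that fit more than 1 of these genes was likewise not given, and the low counts of *Atp2a2* and *Atp2a3* beside those of *Atp2a1* are uncertain to that extent.

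On GRCm38 the genes lie at chr9:53850164-53854560 (*Sln*), chr10:53337667-53345987 (*Pln*), chr10:70204664-70219711 (*Mrln*), chr7:126445858-126463108 (*Atp2a1*), chr5:122453513-122502225 (*Atp2a2*) and chr11:72961169-72993044 (*Atp2a3*). *Atp2a1* and *Atp2a2* are on the minus strand and the others on the plus strand. Exons of *Pln* overlap those of *Cep85l* and *Gm47644* on the opposite strand, exons of *Atp2a1* overlap *Rabep2*, and exons of *Atp2a2* overlap *Gm43361*. The library kit marks strand, but no source used here states how strand was handled in counting, so reads of these partners may be included.

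Libraries held 18042558 to 45823277 counts, and libraries of a group correlated at r = 0.961 to 0.990 on the log2 scale. *Mtm1* itself lay at 13.5 to 17.7 CPM (counts scaled to the size of the library) in the 8 WT libraries with or without tamoxifen and at 2.91 to 3.71 CPM in the 7 mutant libraries, as labelled. A pair of libraries stood apart in genes that bear on the SERCA system. WT + TAM replicate 1 had 1545 CPM over 11 slow-fibre genes, against 166 to 625 CPM in the other 3 libraries of its group. *Mtm1*-/y replicate 1 had 631 CPM over 12 genes of immature or denervated fibres, against 303 to 457 CPM in its group, and 586 CPM over 8 smooth muscle genes, against 937 to 1013 CPM. Members' results that turned on either library are given with and without it.

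In untreated WT muscle the members spanned a wide range of levels. For comparing genes, counts were divided by the merged exon length in kb and scaled to a fixed total per library, as TPM are. *Atp2a1* reached 30898 ± 1348 of these per-length units (SD, n = 4), *Mrln* 81.0 ± 2.59, *Atp2a2* 19.7 ± 2.17, *Atp2a3* 6.74 ± 1.35, *Sln* 2.85 ± 0.205 and *Pln* 1.96 ± 0.417. This order held in all 4 WT and all 4 WT + TAM libraries. No neighbours in it had overlapping ranges in WT, the closest being *Sln* (2.58 to 3.07) and *Pln* (1.38 to 2.38). *Atp2a1* ranked 2 or 3 among all genes in every library of the series and took 3.48% to 4.46% of all counts.

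In mutant muscle the order of these per-length levels changed at a single place, the position of *Sln*. *Sln* stood second, behind *Atp2a1* and ahead of *Mrln*, in all 7 mutant libraries with or without tamoxifen. The rest kept their WT order apart from *Mtm1*-/y replicate 1, where *Atp2a2* exceeded *Mrln*.

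*Sln* rose in *Mtm1*-/y muscle from a low level to that of abundant transcripts. In WT it was counted at 1.43, 1.58, 1.46 and 1.38 CPM in replicates 1 to 4. In *Mtm1*-/y the values were 1750, 361, 303 and 304 CPM. All 4 mutant libraries lay far above all WT libraries, and replicate 1 lay far above the other 3 mutants. In raw counts *Sln* went from 33 to 58 per WT library to 8953 to 66904 per mutant library. Its rank among all genes moved from 11412 to 11791 in WT to 57 to 351 in *Mtm1*-/y. The fitted log2 fold change was 8.86 (SE 0.69, 95% interval 7.37 to 10.36, edgeR adjusted p = 4.12e-06), a 465-fold difference which ranked 2 among all tested genes by rise. In bulk muscle more cells of a type and more RNA per cell cannot be told apart.

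In this comparison *Sln* was the only member past adjusted p 0.05, 1 of 6, while 30.4% of all tested genes passed (15.5% higher and 14.9% lower). Without *Mtm1*-/y replicate 1 the log2 fold change of *Sln* was 7.79 (adjusted p = 1.27e-12). *Sln* is also an atrial gene, and the cardiac genes *Nppa*, *Nppb* and *Myl7* had at most 11, 3 and 3 counts in any library of the series. The summed cardiac list, of which 6 of 11 genes passed the filter, lay at 41.2 to 56.5 CPM in *Mtm1*-/y and 16.8 to 20.3 CPM in WT. It was led by *Myl4* and *Tnnt2*, which are also genes of developing skeletal muscle. Of the 6 tested, these 2 rose and 2 fell, *Gja5* by 1.63 and *Kcnj3* by 1.75 on the log2 scale. A cardiac part in the values of *Sln* was not tested.

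Under tamoxifen *Sln* stayed high in the mutant. *Mtm1*-/y + TAM libraries had 389, 392 and 452 CPM. These values lay inside the range of the untreated mutants, above 3 of them and below replicate 1. The fitted log2 fold change of *Mtm1*-/y + TAM over *Mtm1*-/y was -0.72 (SE 0.52, 95% interval -1.85 to 0.41, adjusted p = 0.877). Without *Mtm1*-/y replicate 1 it turned to 0.35. None of the 6 members passed adjusted p 0.05 in this comparison by edgeR, none had an unadjusted p under 0.05, and limma-voom and DESeq2 without its Cook's distance filter called none either. Over all tested genes 0.0129% passed by edgeR, so few calls were made on any gene. The interval of *Sln* covers both a fall and a rise.

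**Figure D1:**
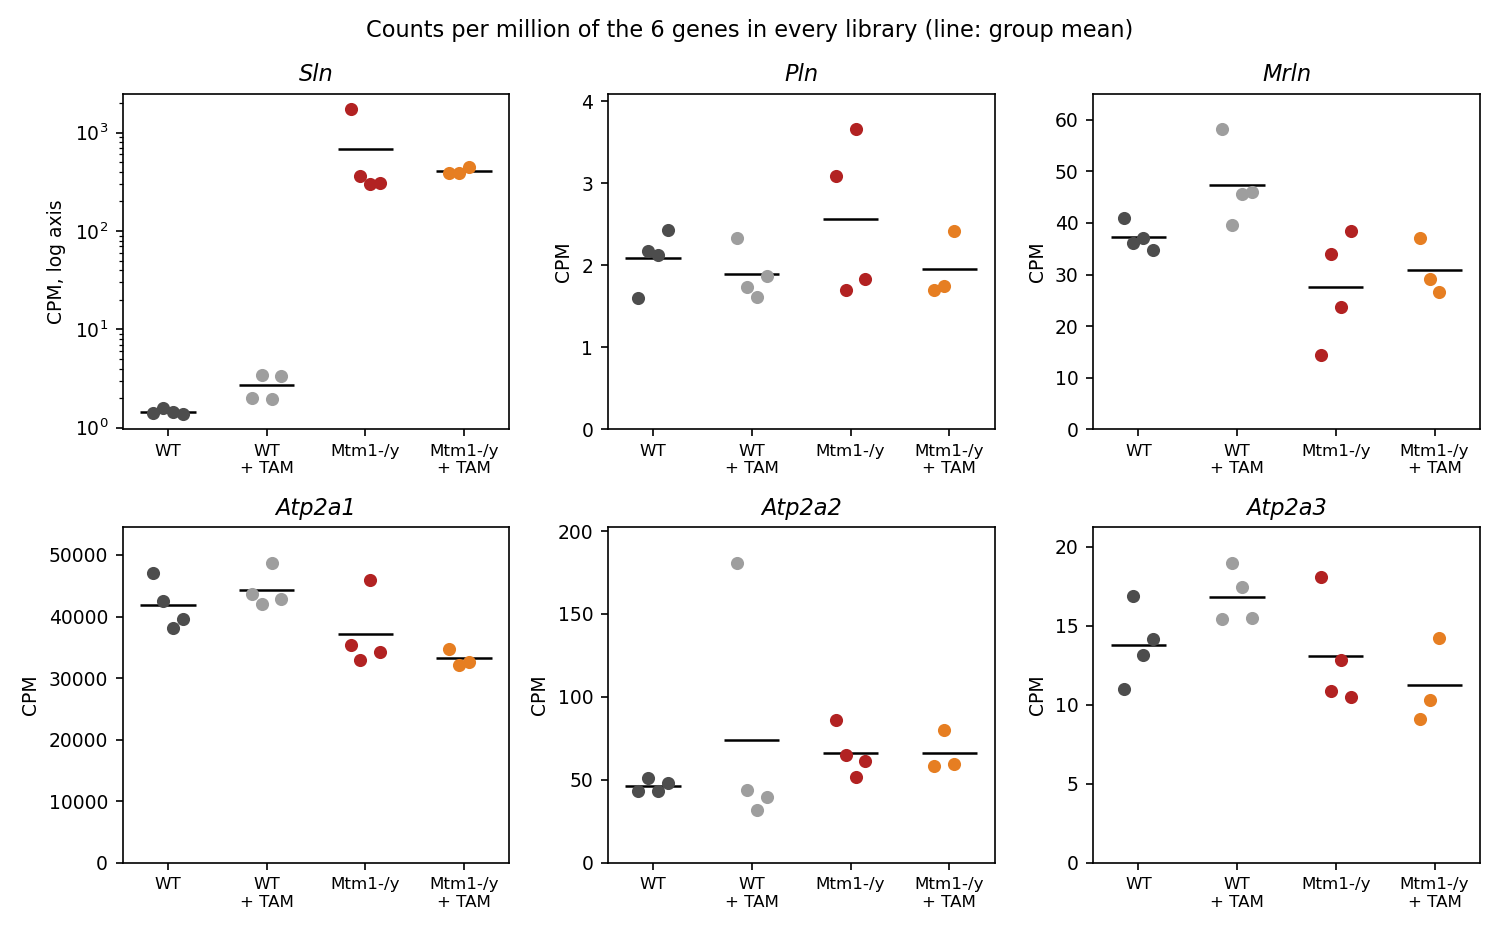
CPM of each gene (y axis, logarithmic for *Sln* and starting at 0 for the others) in every library of the 4 groups (x axis), with a line at the group mean. *Sln* lies at 1.38 to 3.42 CPM in all WT libraries and at 303 to 1750 CPM in all mutant libraries, and *Atp2a2* of WT + TAM replicate 1 lies at 181 CPM.

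In WT muscle *Sln* was higher with tamoxifen in every library, at a level that remained low. WT + TAM libraries had 2.00, 3.42, 1.98 and 3.36 CPM, all above the highest WT library at 1.58 CPM. Of all tested genes 8.08% likewise had no overlap between these groups, in either direction. The fitted log2 fold change was 0.86 (SE 0.61, 95% interval -0.45 to 2.17, adjusted p = 0.640), so the difference did not pass the test. Without *Mtm1*-/y replicate 1, a library outside this comparison that enters the shared estimate of the spread, the same log2 fold change of 0.86 had an adjusted p of 0.0392. Without that library and WT + TAM replicate 1 together it was 0.96 (adjusted p = 0.0106). In the full fit 0 of 6 members passed, against 0.309% of all tested genes, and 0 of 6 had an unadjusted p under 0.05. The level reached by *Sln* in WT + TAM ranked 9901 to 11234 among all genes.

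Between the treated groups *Sln* was 155-fold higher in the mutant, with a log2 fold change of 7.28 (SE 0.65, 95% interval 5.86 to 8.69, adjusted p = 1.90e-05). Treated mutants against untreated WT gave 8.14 (SE 0.68, adjusted p = 1.23e-05). These comparisons share their libraries with the ones above and are not independent of them. The difference in the tamoxifen effect on *Sln* between genotypes, tested as an interaction, was -1.59 on the log2 scale (SE 0.80, 95% interval -3.31 to 0.14, adjusted p = 0.499). Without *Mtm1*-/y replicate 1 it was -0.51 (adjusted p = 0.564). No member passed the interaction test in edgeR, none had an unadjusted p under 0.05, and 0% of all genes passed, although 1650 genes had an unadjusted p under 0.05 and DESeq2 without its Cook's distance filter called 74 genes.

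*Pln* was the least abundant regulator per length in all groups. It had 1.60, 2.17, 2.12 and 2.43 CPM in WT and 2.33, 1.73, 1.62 and 1.87 CPM in WT + TAM. In *Mtm1*-/y it had 3.09, 1.69, 3.65 and 1.84 CPM, and in *Mtm1*-/y + TAM 1.70, 1.75 and 2.42 CPM. All groups overlapped. The log2 fold change of *Mtm1*-/y over WT was 0.31 (SE 0.25, 95% interval -0.22 to 0.83, adjusted p = 0.372), and between the treated groups it was 0.06 (95% interval -0.52 to 0.65, adjusted p = 0.902). With 32 to 118 counts per library, changes of less than about that interval were not detectable at this depth. *Sln* and *Pln* thus lay side by side at the bottom of the per-length order in WT and far apart in the mutants.

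*Mrln*, the most abundant regulator transcript of WT muscle, had lower means in the mutants and did not pass the test. WT libraries had 41.1, 36.0, 37.0 and 34.7 CPM and *Mtm1*-/y libraries 14.4, 33.9, 23.6 and 38.4 CPM. The lowest value came from replicate 1, the library with the highest *Sln*, and the groups overlapped through replicate 4. The log2 fold change was -0.43 (SE 0.23, 95% interval -0.92 to 0.06, adjusted p = 0.168). Without *Mtm1*-/y replicate 4, which was not among the libraries that stood apart, it was -0.64 and passed (edgeR adjusted p = 0.0465). Without *Mtm1*-/y replicate 1 *Mrln* did not pass. Over all settings tried its log2 fold change ranged from -0.64 to -0.22.

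Among treated libraries *Mrln* did not overlap between genotypes, which held for 31.6% of all tested genes. WT + TAM had 58.1, 39.5, 45.7 and 46.0 CPM and *Mtm1*-/y + TAM had 37.0, 29.2 and 26.6 CPM. The log2 fold change was -0.62 (SE 0.25, 95% interval -1.15 to -0.08, adjusted p = 0.0981), just short of the call. It passed without *Mtm1*-/y replicate 1 (adjusted p = 0.0129) and when only the 2 treated groups were fitted (adjusted p = 0.0264). In this comparison 2 of 6 members passed in the full fit, *Sln* and *Atp2a1*, while 20.1% of all tested genes passed.

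*Atp2a1*, the most abundant pump transcript, differed little between untreated groups. WT libraries had 47140, 42586, 38177 and 39632 CPM and *Mtm1*-/y libraries 35391, 32993, 45903 and 34157 CPM. A single mutant library, replicate 3, lay within the WT range and the other 3 lay below it. The log2 fold change was -0.17 (SE 0.13, 95% interval -0.44 to 0.10, adjusted p = 0.317).

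Between the treated groups *Atp2a1* did not overlap, which held for 31.6% of all tested genes. WT + TAM libraries had 43588, 41962, 48698 and 42785 CPM, and *Mtm1*-/y + TAM libraries had 34693, 32192 and 32679 CPM. The log2 fold change was -0.42 (SE 0.14, 95% interval -0.71 to -0.12, edgeR adjusted p = 0.0451), a level of 0.75 times that of WT + TAM. This call was close to the threshold: leaving out 1 library ended it in 11 cases, with adjusted p between 0.0508 and 0.145 and log2 fold changes of -0.45 to -0.37. Against untreated WT the treated mutants gave -0.34 (SE 0.14, adjusted p = 0.0903), again with no overlap, as for 41.4% of all tested genes. There 1 of 6 members passed, *Sln*, against 23.3% of all tested genes. Whether the genotype difference in *Atp2a1* changed with tamoxifen was tested as an interaction. It was -0.24 (SE 0.19, 95% interval -0.64 to 0.16, edgeR adjusted p = 0.657) and did not pass.

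*Atp2a2* was higher in mutant than in WT libraries, and whether that passed depended on a library of another group. WT had 43.2, 51.1, 43.5 and 48.1 CPM and *Mtm1*-/y had 85.8, 65.1, 51.5 and 61.3 CPM, with no overlap. The same held for 30.5% of all tested genes, in either direction. *Mtm1*-/y + TAM had 58.5, 80.2 and 59.3 CPM, also above all WT libraries, where 41.4% of all tested genes had no overlap. WT + TAM had 44.0, 31.8 and 39.7 CPM in replicates 2 to 4 and 181 CPM in replicate 1, the highest value of the series.

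In the fit of all libraries the log2 fold change of *Atp2a2* in *Mtm1*-/y over WT was 0.50 (SE 0.45, 95% interval -0.46 to 1.47, adjusted p = 0.419). Without WT + TAM replicate 1 it was again 0.50, and it passed (adjusted p = 0.0194). Without both that library and *Mtm1*-/y replicate 1 it was 0.35 (adjusted p = 0.0479). *Atp2a2* of treated mutants against untreated WT behaved alike, with 0.51 in the full fit (adjusted p = 0.488) and 0.51 without WT + TAM replicate 1 (adjusted p = 0.0325).

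Between the treated groups the direction of *Atp2a2* itself turned on that library. The full fit gave -0.16 (SE 0.48, adjusted p = 0.847), and without WT + TAM replicate 1 the value was 0.78 (adjusted p = 0.00629). Likewise the log2 fold change of WT + TAM over WT was 0.67 (adjusted p = 0.614) in the full fit and -0.27 (adjusted p = 0.584) without replicate 1. WT + TAM replicate 1 also had the highest sums of the slow-fibre and cardiac lists in its group, at 1545 and 125 CPM. The part of slow-fibre content in these values was not tested.

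**Figure D2:**
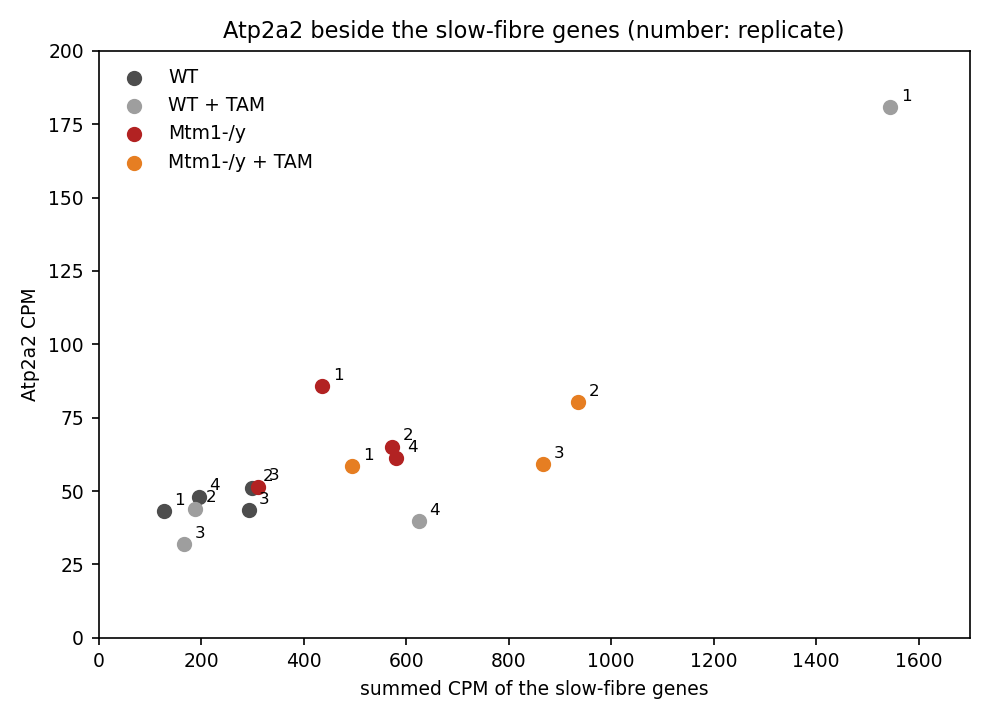
*Atp2a2* CPM (y axis) against the summed CPM of 11 slow-fibre genes (x axis) in each library, with the replicate number beside each point and a colour for each group. WT + TAM replicate 1 stands alone at 1545 and 181 CPM, and the other 3 WT + TAM libraries lie at 31.8 to 44.0 CPM of *Atp2a2*.

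Calls among the slow-fibre genes, whose usual pump is SERCA2, also moved with WT + TAM replicate 1. In *Mtm1*-/y against WT 1 of 11 rose and 1 fell in the full fit, against 15.5% and 14.9% of all tested genes. *Myoz2*, a Z-disc protein, rose by 1.22 on the log2 scale (SE 0.38, adjusted p = 0.0274) and *Myl3*, a slow myosin light chain, fell by 3.81 (SE 0.48, adjusted p = 0.000125). Without WT + TAM replicate 1 alone, 6 of 11 rose and 1 fell, without *Mtm1*-/y replicate 1 alone 1 rose and 1 fell, and without both 4 rose and 1 fell. *Myh7*, the slow myosin heavy chain that defines these fibres, lay at 1.46 to 2.80 CPM in WT and 3.09 to 4.66 CPM in *Mtm1*-/y. Of the WT + TAM libraries replicate 1 reached 439 CPM, while the remaining 3 had between 1.45 and 3.70 CPM. The values were 4.61, 26.0 and 37.7 CPM in *Mtm1*-/y + TAM. With all libraries it passed in none of the comparisons. Among 12 fast-fibre genes none rose and 3 fell in *Mtm1*-/y, against 15.5% and 14.9% of all tested genes. Those that fell were *Mybpc2* by 0.95, *Tpm1* by 0.65 and *Tnnt3* by 0.51 on the log2 scale.

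*Atp2a3* did not overlap between the treated groups, like 31.6% of all tested genes, and its test fell just short of the threshold. It had 11, 16.9, 13.1 and 14.1 CPM in WT and 18.0, 10.8, 12.8 and 10.5 CPM in *Mtm1*-/y, for a log2 fold change of -0.08 (95% interval -0.46 to 0.31, adjusted p = 0.787). WT + TAM had 15.4, 19.0, 17.5 and 15.5 CPM, all above the 9.12, 10.3 and 14.2 CPM of *Mtm1*-/y + TAM. The log2 fold change was -0.58 (SE 0.20, 95% interval -1.0 to -0.16, adjusted p = 0.0516). It passed with RLE and upper-quartile scaling and with a minimum count of 50 (adjusted p = 0.0496, 0.0490 and 0.0485).

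Marker genes of endothelium and blood cells, where SERCA3 is best known, also varied. The summed level of 10 endothelial genes was 600 to 777 CPM in WT, 429 to 733 in WT + TAM, 352 to 482 in *Mtm1*-/y and 352 to 453 in *Mtm1*-/y + TAM. In *Mtm1*-/y against WT 8 of the 10 fell, led by *Kdr*, *Cdh5* and *Emcn*, against 14.9% of all tested genes. Of 12 leukocyte and platelet genes 7 passed the filter, and their sum was 58.6 to 76.3 CPM in WT and 6.29 to 20.0 CPM in all other libraries. In WT most of it was *Ighm*, which averaged 60.6 CPM there. Its means were 4.57 CPM in WT + TAM, 1.85 in *Mtm1*-/y and 2.41 in *Mtm1*-/y + TAM. The lower sums thus follow *Ighm* and do not show a fall of the list. In *Mtm1*-/y against WT 1 of the 7 fell, *Ighm*, and 1 rose, *Cd68* by 1.87 (edgeR adjusted p = 0.0238). The median log2 fold change of the 7 was 0.09. Without *Mtm1*-/y replicate 1, 0 rose and 1 fell. The part of endothelium and blood cells in the values of *Atp2a3* was not tested.

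**Figure D3:**
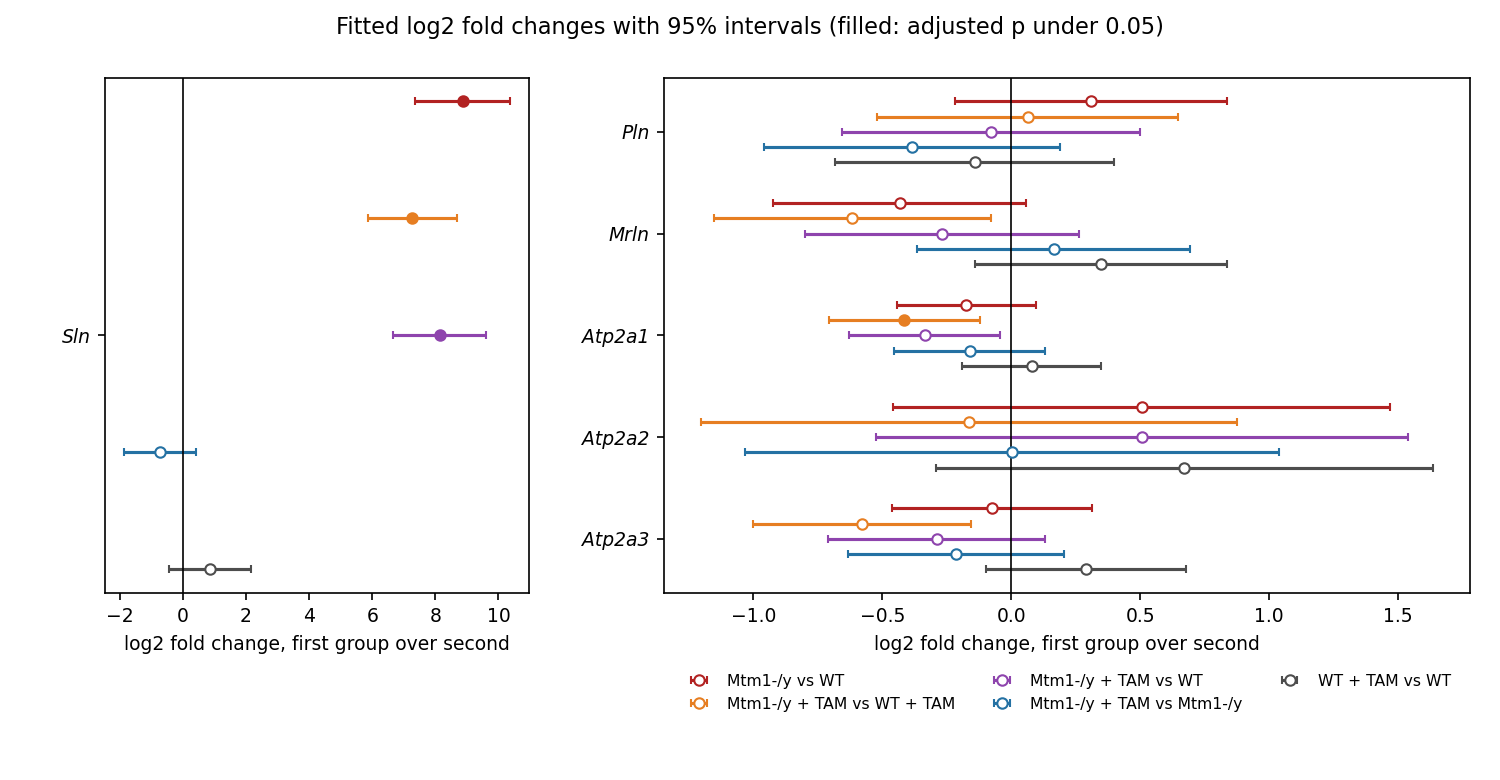
Fitted log2 fold changes (x axis) of *Sln* (left) and of the other 5 genes (right) in 5 comparisons, with 95% intervals and filled points where the edgeR adjusted p was under 0.05. *Sln* is filled at 8.86, 7.28 and 8.14 in the comparisons of mutant with WT groups, and *Atp2a1* is filled at -0.42 between the treated groups.

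The balance of regulator to pump was then taken within each library, as counts per kb of the regulator for each 1000 counts per kb of the 3 pumps together. These ratios describe transcripts, not protein, and carry no test. In WT the 3 regulators summed to 2.69, 2.65, 3.03 and 2.75 per 1000 pump transcripts. In *Mtm1*-/y the sum was 132, 31.9, 19.0 and 26.8. All mutants exceeded all WT libraries, and the median of the group was 10.8 times that of WT, while the mean, drawn up by replicate 1, was 18.8 times that of WT. With the longest transcript as the length of each gene the medians differed 5.01-fold and the means 7.96-fold, still with no overlap.

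With tamoxifen the sums overlapped with those of untreated libraries in both genotypes. WT + TAM libraries had 4.11, 3.04, 2.91 and 3.43 regulators per 1000 pump transcripts, which overlapped with WT. *Mtm1*-/y + TAM libraries had 32.8, 34.8 and 39.0, within the range of the untreated mutants. The median in treated mutants was 10.8 times that in treated WT, and 4.86 times with the longest transcript as length.

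The makeup of the sum differed as well. *Mrln* made up 93.9% to 95.4% of regulator transcripts in WT and *Sln* 2.97% to 3.69%. In *Mtm1*-/y *Sln* made up 87.4% to 99.0% and *Mrln* 0.909% to 12.3%, and in *Mtm1*-/y + TAM *Sln* made up 90.2% to 93.6%. *Mrln* per 1000 pump transcripts stayed at 2.62 ± 0.160 (SD, n = 4) in WT, 3.16 ± 0.543 (n = 4) in WT + TAM, 2.26 ± 1.06 (n = 4) in *Mtm1*-/y and 2.74 ± 0.377 (n = 3) in *Mtm1*-/y + TAM, with overlap between all groups compared. *Pln* per 1000 pump transcripts was below 0.11 in every library. *Pln* averaged 0.0636 ± 0.0149 in WT and 0.0856 ± 0.0228 in *Mtm1*-/y, with overlap. *Sln* moved from 0.0798 to 0.101 in WT to 17.4 to 130 in *Mtm1*-/y.

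**Figure D4:**
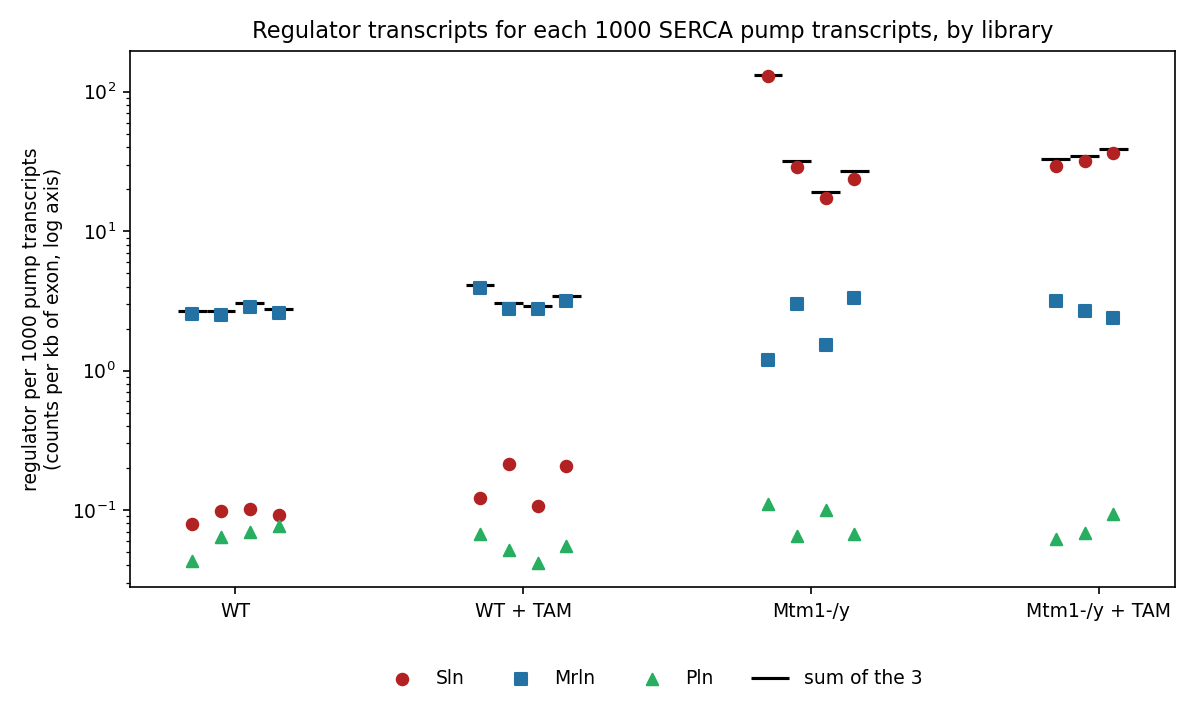
Counts per kb of each regulator per 1000 counts per kb of the 3 pumps (y axis, logarithmic) in every library of the 4 groups (x axis), with a short horizontal line at the sum of the 3 regulators. The sum lies at 2.65 to 4.11 in all WT libraries, where *Mrln* sets it, and at 19.0 to 132 in all mutant libraries, where *Sln* sets it.

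Paired with single pumps, *Sln* was higher in the mutants than in WT with either *Atp2a1* or *Atp2a2* as the pump. *Sln* per 1000 *Atp2a1* transcripts was 0.0926 ± 0.00932 (SD, n = 4) in WT and 50.1 ± 53.8 (n = 4) in *Mtm1*-/y, and 32.7 ± 3.50 (n = 3) in *Mtm1*-/y + TAM. Against *Atp2a2*, *Sln* went from 0.132 to 0.155 transcripts for each pump transcript in WT to 22.9 to 94.1 in *Mtm1*-/y and 22.6 to 35.2 in *Mtm1*-/y + TAM. *Pln* per 1000 *Atp2a2* transcripts was 98.6 ± 13.7 in WT and 89.8 ± 45.3 in *Mtm1*-/y, with overlap, and fell to its lowest value, 28.4, in WT + TAM replicate 1, where *Atp2a2* was highest. *Sln* thereby outnumbered *Atp2a2* in every mutant library and in no WT library.

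The makeup of the pumps hardly varied. *Atp2a1* made up 99.9% of pump transcripts on average in each of the 4 groups, with 99.7% in WT + TAM replicate 1 as the lowest library. *Atp2a2* made up 0.0523% to 0.0694% in WT and 0.0641% to 0.138% in *Mtm1*-/y, and 0.236% in WT + TAM replicate 1. *Atp2a3* stayed between 0.0153% and 0.0335% in all libraries. Absolute values of the *Mrln* ratios depend on the length assigned to the gene, because its merged exons span 1180 bases and its longest transcript 451.

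Other genes that act on the pumps changed in both directions in *Mtm1*-/y against WT. Of 15 tested genes for pump partners and calcium-store proteins, 3 rose and 3 fell (median log2 fold change 0.09, against 0.00 over all genes). Of all tested genes 15.5% rose and 14.9% fell, so changes in both directions are not particular to such a list. *Nol3*, which encodes the apoptosis repressor ARC, rose by 1.24 (SE 0.14, adjusted p = 2.05e-05) and *Jsrp1*, a junctional protein, by 0.63 (adjusted p = 0.00131). *Casq1*, the calcium-binding protein of the fast-fibre store, fell by 0.66 (adjusted p = 0.0461). That call was close to the threshold, with a mean of 3544 CPM and an SD of 1401 in *Mtm1*-/y. Without *Mtm1*-/y replicate 1 alone 3 genes of the list rose and 2 fell. *1810037I17Rik*, another micropeptide gene of this family, had a log2 fold change of -0.24 (adjusted p = 0.196). Between the treated groups *Nol3*, *S100a1* and *Jsrp1* rose, by 0.88, 0.79 and 0.51, and none of the 15 fell in the full fit. There 20.1% of all tested genes passed, in either direction.

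Kinases and phosphatases that act on phospholamban and sarcolipin changed in both directions. Of 15 tested, 6 rose and 7 fell in *Mtm1*-/y, against 15.5% and 14.9% of all tested genes. *Camk2d*, a calcium/calmodulin kinase subunit, rose by 1.09 (SE 0.21, adjusted p = 0.00138) and *Dmpk*, a kinase of muscle membranes, by 1.02 (SE 0.14, adjusted p = 0.000137). *Ppp1r1a*, an inhibitor of protein phosphatase 1, fell by 0.92 (SE 0.22, adjusted p = 0.00605). Between the treated groups 3 rose and 6 fell, where 20.1% of all tested genes passed in either direction. *Ppp1r1a* was at a log2 value of -2.13, *Camk2d* at 1.35 and *Ppp1cc*, a catalytic subunit of that phosphatase, at -1.34.

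Other routes of calcium removal showed 2 genes higher and 1 lower of 11 in *Mtm1*-/y against WT, near the 15.5% and 14.9% of all tested genes. *Slc8a3*, a sodium-calcium exchanger, rose by 0.48 (adjusted p = 0.0330) and *Atp2b4*, a calcium pump of the plasma membrane, fell by 0.68 (adjusted p = 0.000953). *Pvalb*, the soluble calcium buffer of fast fibres, had a log2 fold change of -0.30 (adjusted p = 0.485). Between the treated groups 2 rose and 2 fell, where 20.1% of all tested genes passed in either direction. Among them were *Atp2b4* (-0.80) and *Mcu*, the pore of the mitochondrial calcium uniporter (0.48).

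Of 16 tested genes that control SERCA gene expression through thyroid hormone, calcineurin and MEF2, 3 rose and 3 fell in *Mtm1*-/y against WT. These counts are near the 15.5% and 14.9% of all tested genes. *Rcan1*, a calcineurin inhibitor that is itself a target of calcineurin signalling, rose by 1.44 (SE 0.36, adjusted p = 0.00905) and *Nfatc2* by 0.83 (SE 0.18, adjusted p = 0.00317). *Ppp3cb*, a catalytic subunit of calcineurin, fell by 0.60 (SE 0.11, adjusted p = 0.0011). In the full fit no gene of these 4 lists passed in *Mtm1*-/y + TAM against *Mtm1*-/y or in WT + TAM against WT. Without both libraries that stood apart the counts in *Mtm1*-/y against WT were 3 higher and 2 lower, 6 and 8, 3 and 1, and 2 and 2 in the order above. The same counts between the treated groups were 3 and 1, 4 and 8, 3 and 3, and 2 and 5. In WT + TAM against WT 2 genes of the kinase and phosphatase list and 1 of the gene control list were then higher, and still none passed in *Mtm1*-/y + TAM against *Mtm1*-/y. Calls over all genes without these libraries are not given here, so no gain in these counts can be read as particular to the lists.

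Genes of immature or denervated fibres rose in *Mtm1*-/y in 11 of 12 cases (median log2 fold change 2.29), against 15.5% of all tested genes. Among them were *Runx1* and *Gadd45a*, with 3.48 and 2.95. The summed level was 93.0 to 106 CPM in WT and 303 to 631 CPM in *Mtm1*-/y, highest in replicate 1, which was also highest for *Sln*. Nothing was tested about the order of these changes or their link to *Sln*.

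Genes whose levels ran most closely with each member were named over 15 libraries among 11052 genes of moderate level or higher, as Pearson's r of log2 CPM and with no test. For *Sln* they were *Chrnb1* (r = 0.986), *Erbb2* (0.982) and *Cacng1* (0.980), and the points fall into 8 low WT and 7 high mutant libraries. For *Atp2a1* they were *Map2k4* (0.973), *Tti1* (0.935) and *Prkar2a* (0.930). For *Atp2a2* they were *Spp1* (0.906) and the slow troponin genes *Tnnt1* (0.898) and *Tnnc1* (0.893), and WT + TAM replicate 1 weighs on all 3. For *Mrln* they were *Add3* (0.929), *Spats2* (0.925) and *Fer1l6* (0.889), for *Atp2a3* *Selenoo* (0.897), *Inpp5b* (0.891) and *Fndc3a* (0.886), and for *Pln* they included *6720427I07Rik* (0.804) and *Lin52* (0.777).

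Once group means were removed, so that genotype and treatment no longer set the pattern, *Map2k4* remained first for *Atp2a1* (r = 0.965), followed by *Cul5* and *Hrc* (0.927 each). *Tnnt1* (0.95) came first for *Atp2a2*, followed by *Kctd12* (0.938) and *Tnni1* (0.934). *Sln* ran with *Tet2* (0.959), *Zbtb2* (0.939) and *Med25* (0.938) in place of the genes named above. *Mrln* ran with *Armt1*, *Cd99l2* and *Gprc5c*, *Pln* with *Fgf2*, *Mcl1* and *Mylk*, and *Atp2a3* with *Kitl*, *Prr14* and *Rapgef3*. Libraries share depth and composition in these measures, and a single library can set such an r over few points.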

How the data were processed

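The authors deposited raw read counts per Ensembl gene, 1 column per library, and no replicates were pooled. The labels name TRI Reagent extraction and a stranded mRNA kit, and the submitters' processing notes list cutadapt 1.10, Bowtie2 2.2.8, STAR 2.5.3a and HTSeq 0.6.1p1 with the builds mm10 and GRCm38, without roles. The annotation release, strand setting and filters were left unstated in the sources used here.

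All 30672 identifiers matched GENCODE M21. Genes passing filterByExpr at a minimum count of 10 were fitted with edgeR 4.0.16 (R 4.3.3), using TMM factors, 4 group means and quasi-likelihood tests with 11 residual degrees of freedom. P-values are two-sided and adjusted by Benjamini-Hochberg over all tested genes, with calls at adjusted p under 0.05. CPM use the TMM factors. Intervals are at 95%. Ratios used counts per kb of merged exon. Peptides were aligned with MAFFT 7.526, and pairwise identities came from Biopython 1.88. The fits were tested on simulated data. DESeq2 1.42.0 and limma 3.58.1 served as alternatives.

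Members and gene lists were chosen with earlier results of these data known. All 6 members are named, and for each list the counts and at most the 3 called genes with the largest change, plus genes that define a fibre or cell type. *Pvalb*, among the pathway genes, and *1810037I17Rik* were named after their values were seen. Some genes that this rule would name are not reported here. No libraries of a group agreed within sampling noise, so none was treated as a duplicate deposit, which does not show that they come from separate animals. List counts without 1 odd library, and folds of the regulator sum under other lengths, were added after the data were seen.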

Additional observations from a re-analysis of the deposited data

Results flagged for a closer look

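A total of 63 sets of 4 libraries, over the levels and ratios of the members, were checked for a library far from the other 3 by Dixon's ratio of gap to range at its 95% critical value, which chance passes in about 1 in 20. The checks overlap, since the ratios reuse the same counts, and 10 values passed.

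*Mtm1*-/y replicate 1 accounted for 6 of them through *Sln*. Its *Sln* level was 1750 CPM, against 303 to 361 CPM in the other 3. It had 130 *Sln* per 1000 pump transcripts against 17.4 to 28.8, 132 for all regulators against 19.0 to 31.9, and 130 per 1000 *Atp2a1* transcripts against 17.4 to 28.9. *Sln* stood at 94.1 per *Atp2a2* transcript against 22.9 to 27.1, and at 109 per *Mrln* transcript against 7.10 to 11.5.

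WT + TAM replicate 1 accounted for 3 through *Atp2a2*. Its *Atp2a2* level was 181 CPM against 31.8 to 44.0 CPM, its *Atp2a2* share of pump transcripts was 0.236% against 0.0373% to 0.0599%, and its *Atp2a1* share was 99.7% against 99.9% in each of the others. The last value was the *Atp2a3* share of pump transcripts in WT + TAM replicate 2, 0.0297% against 0.0232% to 0.0238%.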

How the results depend on the processing

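The rise of *Sln* in mutant over WT groups passed under all alternatives that gave a p, in all 3 comparisons. DESeq2 with its Cook's distance filter gave no p for *Sln* or *Atp2a2*, so its number of members called was not taken, and DESeq2 without that filter was added after the data were seen. Members called in *Mtm1*-/y against WT went from 1 to 2 with only those groups fitted and without both odd libraries (WT + TAM replicate 1 and *Mtm1*-/y replicate 1), and ranged from 1 to 2 when 1 library was left out. In WT + TAM against WT they went from 0 to 1 without both odd libraries and ranged from 0 to 1. Between the treated groups they went from 2 to 1 with no filter, with the replicate block and with a log2 fold change over 1 required, to 4 with only those groups fitted and to 5 without both odd libraries, and ranged from 1 to 4. In treated mutants against WT they went from 1 to 2 with DESeq2 without the Cook's distance filter, to 3 with only those groups fitted and to 2 without both odd libraries, and ranged from 1 to 2. Calls over all genes moved as well. They went from 3121 to 2792 between the treated groups with the replicate block. In treated mutants against WT they went from 3615 to 4133 with DESeq2 without the Cook's distance filter. For fewer groups or libraries the calls over all genes are not given here, so a gain cannot be read as particular to the members.

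Of 21 same-numbered pairs of libraries, 6 deviated together at r over 0.1, the highest at 0.306. Pairs with unlike numbers were not compared, so this check cannot decide whether replicate numbers pair the libraries. The fit with the replicate block moved the genes called in *Mtm1*-/y against WT from 4727 to 4473 and ended the call of *Atp2a1* between the treated groups (log2 fold change -0.44, adjusted p = 0.0552). DESeq2 called 298 and limma-voom 39 genes in WT + TAM against WT, against 48 in edgeR.

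Signs that reversed were mostly of values near 0 that passed no test. For *Mtm1*-/y + TAM against *Mtm1*-/y, *Sln* turned to 0.35 without both odd libraries and ranged from -0.98 to 0.35 on leaving out 1, *Mrln* turned to -0.053 and ranged from -0.051 to 0.37, and *Atp2a2* turned to -0.0129 with RLE, -0.0119 with no filter, -0.0134 with DESeq2 without the Cook's filter and -0.0046 with 2 groups only, and ranged from -0.16 to 0.16. Without both odd libraries *Atp2a2* turned to -0.27 in WT + TAM against WT, 0.43 in the interaction and 0.78 between the treated groups, where it was 0.21 with limma-voom and 0.047 with the replicate block. On leaving out 1 library these ranged from -0.27 to 0.93, -0.92 to 0.28 and -0.42 to 0.78, with each reversed sign from leaving out WT + TAM replicate 1. On leaving out 1 library, *Atp2a3* ranged from -0.27 to 0.035 in *Mtm1*-/y against WT, *Pln* from -0.13 to 0.18 between the treated groups and from -0.27 to 0.0080 in treated mutants against WT, and the *Mrln* interaction from -0.40 to 0.022. The cause was not tested.

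The sum of regulators per 1000 pump transcripts moved with the length used. With the longest transcript it was 7.03 in WT, 8.48 in WT + TAM, 56.0 in *Mtm1*-/y and 39.9 in *Mtm1*-/y + TAM, and with plain counts 0.975, 1.17, 19.8 and 13.4. The fold of means of *Mtm1*-/y over WT went from 18.8 to 7.96 with the longest transcript and that between the treated groups from 10.5 to 4.71. On leaving out 1 library the mean ranged over 2.70 to 2.82 in WT, 3.13 to 3.52 in WT + TAM, 25.9 to 63.4 in *Mtm1*-/y and 33.8 to 36.9 in *Mtm1*-/y + TAM. Most closely correlated genes depended on the measure: in 22 of 36 alternatives fewer than 2 of the 3 genes remained. *Pln*, at 32 to 118 counts per library, and *Sln* in WT and WT + TAM, at 33 to 88, are the members that depth limits.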
